A study of Nothobranchius furzeri with 9 samples.

Results

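The genes described here are the enzymes and small proteins of the glutathione, thioredoxin and peroxide defences, measured in killifish liver at 3 ages. Membership followed a rule on gene names, and the members were chosen with earlier results of these data known. A gene belonged if its name in the deposited table began with the symbol of a glutathione S-transferase of the alpha, kappa, mu, omega, pi, rho or theta class, a microsomal glutathione S-transferase, a glutathione peroxidase, a peroxiredoxin or a superoxide dismutase. Names starting with TXN (thioredoxin and its relatives), GLRX (glutaredoxin), MSRA or MSRB (methionine sulfoxide reductase), NQO1 or HMOX (haem oxygenase) also counted, as did CAT (catalase) and the glutathione synthesis genes GCLC, GCLM and gss. This rule found 54 of the 25475 genes of the table. Of these, 48 had enough counts to be tested, out of 13971 genes tested in all. Glutathione reductase (gsr) and sulfiredoxin (srxn1) were also part of the rule, and no gene of the table bears either name.

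The study sequenced liver RNA of male African turquoise killifish, *Nothobranchius furzeri*, a fish with a very short natural life span. All fish were of the GRZ strain, an inbred laboratory strain, with a wild-type genotype and no treatment in the labels other than age. The young group was 6 weeks old, the adult group 12 weeks and the old group 23 to 24 weeks, with 3 libraries each. Nothing beyond the labels says that the 3 libraries of an age come from separate fish, so that the p-values below measure the spread between these libraries, part of which may be technical.

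Glutathione is a small cysteine-containing peptide that liver cells make in large amounts. Glutathione peroxidases use it to reduce peroxides, glutathione S-transferases join it to reactive or foreign compounds, and glutaredoxins use it to free protein thiols. Thioredoxins and peroxiredoxins form a parallel system that draws its electrons from NADPH through thioredoxin reductase, while superoxide dismutases and catalase dispose of superoxide and hydrogen peroxide directly. The roles given below are known mainly from mammals, in which many of these genes are targets of the transcription factor NRF2.

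The libraries held between 19600325 and 33951438 estimated counts. Genes annotated as ribosomal RNA took 29.6% of the counts of young replicate 1 but 4.52 and 4.74% of the other young libraries. They took 2.22 to 2.51% in adult libraries and 22.0, 15.0 and 7.07% in old replicates 1, 2 and 3. These genes include mitochondrial ribosomal RNA, whose part was not separated from that of other ribosomal RNA. All genes of the mitochondrial genome took 34.8, 5.29 and 5.94% in young libraries. Their shares were 2.88, 3.42 and 3.19% in adult and 22.3, 16.1 and 7.93% in old libraries. Hepatocyte markers were abundant throughout, with summed levels of 147600 to 255200 CPM (counts scaled to library size). Markers of exocrine pancreas summed to 77530, 6212 and 23700 CPM in the adult libraries and to 397 to 2130 CPM in the others. The 14 macrophage markers summed to 471 to 693 CPM in adult, 357 to 689.5 CPM in old and 221 to 273 CPM in young libraries. Of 9 germ cell genes, 6 had no count in any library. In bulk tissue, fewer cells of a type and less RNA per cell cannot be told apart.

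Compared per unit of length, in deposited TPM (transcript abundance scaled for gene length and library), a few genes carried most of the RNA of the 54. The theta-class transferase gstt1a came first, with a mean of 1203 TPM over the 9 libraries. It was followed by the cytosolic peroxiredoxin prdx2 at 977.7 TPM, the copper-zinc superoxide dismutase SOD1 at 645 TPM and catalase at 488 TPM. These 4 genes made up 52.3% of the summed TPM of the members. The glutathione synthesis genes lay at the other end, with means of 8.95 TPM for GCLM, 8.09 TPM for GCLC and 3.25 TPM for gss. Soluble glutathione S-transferases held 27.3% of the members' TPM, peroxiredoxins 26.5% and the superoxide dismutases with catalase 20.4%.

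All members together summed to 7118 ± 1531 TPM in young (SD, n = 3), 6243 ± 762 TPM in adult and 5658 ± 1185 TPM in old libraries. The libraries of the 3 ages overlapped in this sum, and the lowest young value, 5352 TPM, belonged to the library with the most ribosomal RNA. The old libraries had 4715, 5270 and 6989 TPM, at 22.0, 15.0 and 7.07% ribosomal RNA. The part of the ribosomal RNA share in these sums was not tested. TPM also lack the scaling between libraries (TMM) that the CPM have. Its factors were 0.846, 1.335 and 1.263 in young libraries, 0.90 to 1.01 in adult and 0.91 to 0.99 in old ones. No sum of all members was made on that scale, so that the order of the ages in TPM may not hold there. Transferases that the rule left out, described at the end, are not in the sum of all members, and no sum with them was made. In young, adult and old libraries OLA.4512 had means of 892, 629 and 837 TPM and Nfu_g_1_010632 837, 433 and 889 TPM. Those of gsta.1 were 590, 447 and 925 TPM, of gstz1 323, 393 and 470 TPM and of OLA.6486 157, 167 and 130 TPM. On the CPM scale the means were 531, 359 and 629 CPM for OLA.4512 and 99.8, 129 and 107 CPM for OLA.6486. For these 2 genes old was thus below young in TPM and above it in CPM. Some roles separated ages in their TPM sums. Glutaredoxins summed to 704, 497 and 486 TPM in young libraries, 157, 193 and 151 TPM in adult and 177.5, 165 and 144.5 TPM in old. Every young library was above all others in this sum, of whose young mean of 562 TPM glrx alone made up 494 TPM. The thioredoxin-domain proteins also separated, with 417 to 667.5 TPM in young libraries against 279 to 367 TPM in adult and 281 to 299.9 TPM in old. TXNDC2, grouped by its name although the table describes it as thioredoxin, made up 390.4 TPM of their young mean of 573 TPM. Methionine sulfoxide reductases, at 114 to 165 TPM, and MGST3, at 144 to 199 TPM, were also highest in young libraries without overlap. For thioredoxins with their reductases and inhibitor, old libraries had 32.8 to 42.85 TPM, below the 54.0 to 127.5 TPM of the others.

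**Figure D1:**
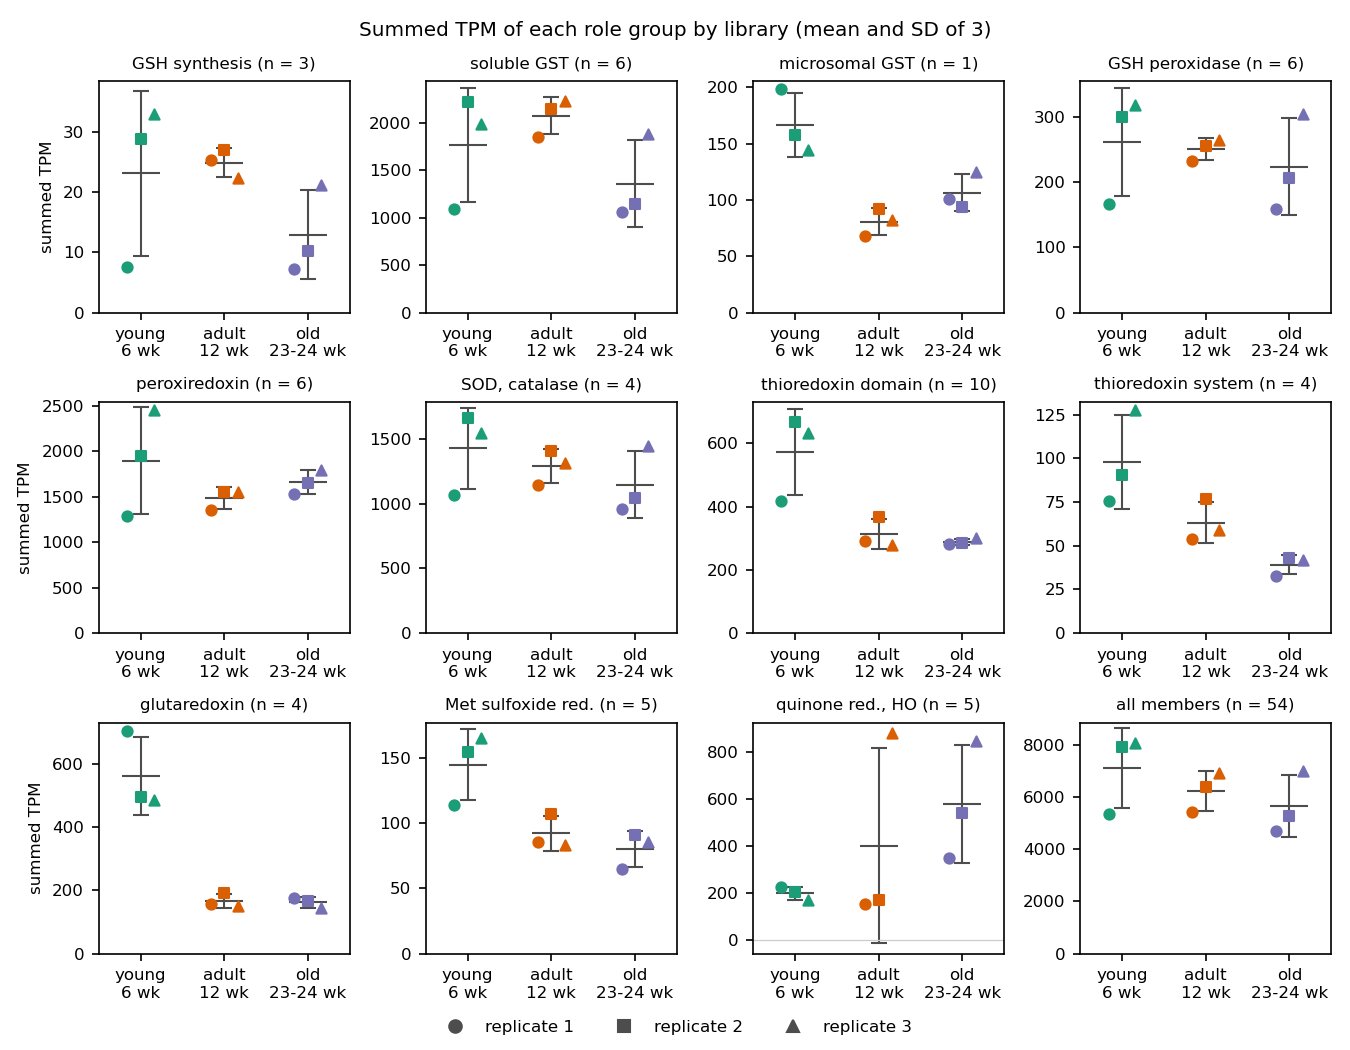
Summed TPM of each role group (vertical axis, linear, panels with their own scale) by age, with 1 point for each library and the mean with SD of 3 libraries; n is the number of genes in the group. Glutaredoxins stood at 486 to 704 TPM in the young libraries and at 144.5 to 193 TPM in all 6 others, while the quinone reductase and haem oxygenase panel has 1 high adult library at 879.5 TPM.

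Between young and adult fish, the members with the smallest p-values were lower in adults. They were the glutaredoxin glrx, TXNDC2 (described in the table as thioredoxin) and the methionine sulfoxide reductase MSRB2. None of the 48 passed the test (edgeR quasi-likelihood, Benjamini-Hochberg adjusted over all 13971 genes, threshold 0.05), where 2 genes or 0.0143% of all genes passed. The smallest adjusted p of a member was that of glrx, at 0.137. By unadjusted p under 0.05, 1 member was higher and 11 were lower, against 4.48% of all genes higher and 5.28% lower. The 3 adult libraries lay wholly above the young ones in 7 members (12.0% of all genes) and wholly below them in 13 (9.68% of all genes). Fitted changes were higher in 22 members (46.2% of all genes) and lower in 26 (53.8%), with a median log2 fold change of -0.06 against -0.07 over all genes.

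Between adult and old fish the members divided evenly, with 24 higher (48.2% of all genes) and 24 lower (51.8%) in old libraries and a median log2 fold change of -0.04, against -0.05 over all genes. The glutathione peroxidase gpx8 and the mu-class transferase GSTM3 were among the higher ones, and GCLC, thioredoxin reductase TXNRD1 and the extracellular dismutase SOD3 among the lower. No member passed the edgeR test, in which 1 gene or 0.00716% of all genes was called, and gpx8 had the smallest adjusted p at 0.0949. By unadjusted p, 5 members were higher and 6 lower, with 11.6% and 11.0% of all genes doing so. The old libraries lay wholly above the adult ones in 11 members (19.1% of all genes) and wholly below in 11 (21.6% of all genes).

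Between young and old fish, 34 members were lower in old libraries (53.9% of all genes) and 14 higher (46.1%). The median log2 fold change was -0.23, against -0.09 over all genes. Peroxiredoxins prdx2, prdx5 and prdx6, GSTM3 and haem oxygenase HMOX1 were higher in every old library than in any young one. Those 5 members stand against 7.69% of all genes, and 6 members lower without overlap stand against 7.9%. edgeR called 78 genes or 0.558% of all genes, 48 higher and 30 lower, and no member, the smallest adjusted p being 0.0805 for glrx. Unadjusted, 4 members were higher and 7 lower, beside 6.26% and 8.83% of all genes.

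A test for any difference among the 3 ages called 100 genes or 0.716% of all genes and no member, with glrx again nearest at an adjusted p of 0.064 by edgeR. By unadjusted p under 0.05 it marked 13 of the 48 members, 27.1% of them, where 18.8% of all genes were marked. Young libraries had the highest mean of the 3 ages in 20 members and the lowest in 8. Over all genes, young was highest in 30.9% and lowest in 23.4%, while the corresponding shares of members were 41.7% and 16.7%. Old had the lowest mean in 22 members (45.8%, against 41.1% of all genes).

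**Figure D2:**
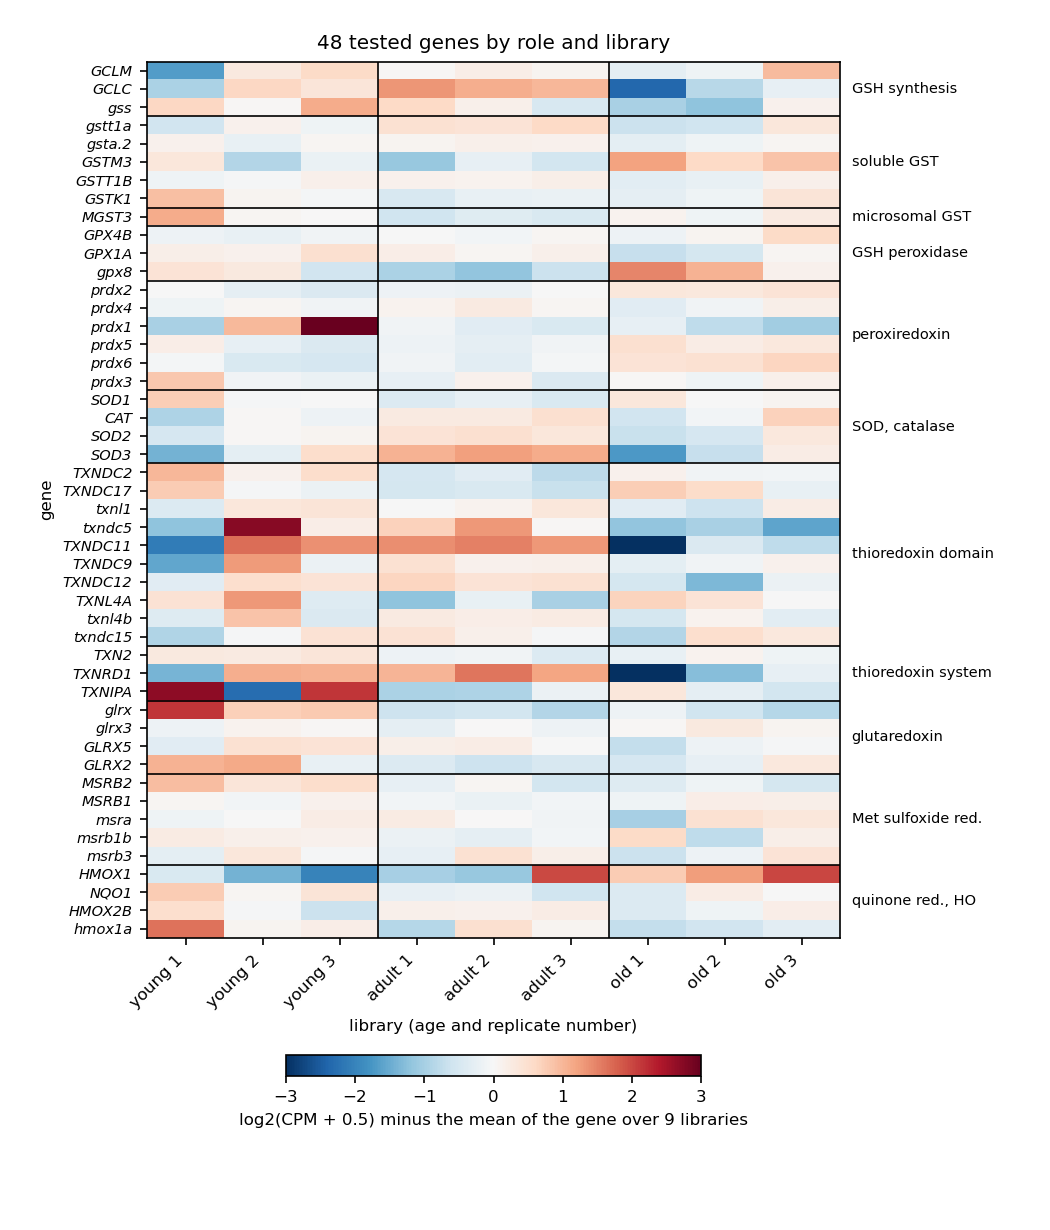
Each row is 1 of the 48 tested genes and each column a library; colour gives log2(CPM + 0.5) minus the gene's mean over the 9 libraries, with the scale ending at -3 and 3. Adult columns are pale and alike, with a median coefficient of variation of 10.2%, while young replicate 1 and old replicate 1 depart most from the other libraries of their ages in rows such as TXNRD1, TXNDC11 and GCLC.

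Members varied least among adult libraries. The median coefficient of variation of a member was 36.0% in young, 10.2% in adult and 25.9% in old libraries, each below the median over all genes (52.0, 22.5 and 46.0%). No comparison was made with genes of like abundance. At the steady end, the alpha-class transferase gsta.2 had 137, 108 and 131 CPM in young, 134, 140.1 and 137 CPM in adult and 102, 115 and 130.4 CPM in old libraries. At the other end stood prdx1 and txndc5 in young libraries, with coefficients of 113% and 126%, and HMOX1 in adult libraries with 123%. In each of these 3 cases a lone library was far above the others.

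Glutathione synthesis runs through glutamate-cysteine ligase, whose catalytic subunit is GCLC and whose modifier subunit is GCLM, and ends with glutathione synthetase, gss. GCLC had 29.2, 24.5 and 22.8 CPM in adult libraries, 5.57, 17.6 and 14.7 CPM in the young and 1.80, 6.14 and 9.46 CPM in old ones. All adult libraries were above all others, and young and old overlapped. Old was 4.39-fold below adult (log2 fold change -2.14, SE 0.60, edgeR adjusted p = 0.115). GCLM, by contrast, had 6.97, 7.91 and 7.18 CPM in adult libraries, within the range of 1.80 to 10.3 CPM of young and near the 5.44 to 13.5 CPM of old ones. Its log2 fold changes were 0.10, 0.19 and 0.28 in the comparisons as ordered above, each smaller than its SE. For gss the young libraries had 7.64, 4.88 and 10.9 CPM, the adult ones 7.43, 5.39 and 3.29 CPM and the old ones 2.19, 1.78 and 5.24 CPM. The ages overlapped, and the old mean was below the young one by -1.34 on the log2 scale (SE 0.56, edgeR adjusted p = 0.299).

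Among the soluble transferases, which conjugate glutathione to electrophiles, GSTM3 had the smallest p for old against adult. Its expressed copy (ENSNFUG00015022289, chromosome 15, 17746411 to 17750063, minus strand) had 85.1, 36.5 and 58.2 CPM in young, 30.5, 56.3 and 45.6 CPM in adult and 157, 101 and 121 CPM in old libraries. Each old library exceeded all young and adult ones. The log2 fold change was 1.52 (SE 0.38) against adult, with an edgeR adjusted p of 0.103, and 1.07 (SE 0.37) against young, with an adjusted p of 0.215. A second gene of the same name on that chromosome (17762452 to 17764374) had no count in any library, and reads shared between such copies could have been assigned to either.

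The most abundant transferase went the other way. In adult libraries gstt1a had 939, 906 and 1037 CPM, above 461, 741 and 625.5 CPM in young libraries and 434, 449 and 863 CPM in old ones. The adult libraries did not overlap with either age, yet the difference between old and adult, -0.72 on the log2 scale (SE 0.33), had an edgeR adjusted p of 0.23. Its paralog GSTT1B, with 49.9 to 70.0 CPM in the 9 libraries, differed between ages by at most 0.25 on the log2 scale in either direction. The kappa-class GSTK1 and the microsomal MGST3, a membrane-bound transferase with peroxidase activity, shared a pattern in which young replicate 1 stood highest. MGST3 had 136, 65.7 and 63.4 CPM in young libraries, 41.6, 48.9 and 45.7 CPM in adult and 67.2, 57.5 and 76.2 CPM in old ones. Adults were therefore below both other ages without overlap, with a log2 fold change of -0.96 (SE 0.34, edgeR adjusted p = 0.41) against young. Without young replicate 1 that change was -0.50 (SE 0.22).

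Glutathione peroxidases differed strongly in abundance. GPX4B, of the class that reduces lipid hydroperoxides within membranes, had 125 to 136 CPM in young, 139 to 152 CPM in adult and 132 to 219.6 CPM in old libraries. GPX1A, of the class of the main cytosolic enzyme, had 38.9, 37.8 and 48.3 CPM in young, 39.45, 35.9 and 38.4 CPM in adult and 21.1, 23.8 and 35.95 CPM in old libraries. All old libraries were below the young ones, by -0.63 on the log2 scale (SE 0.29, edgeR adjusted p = 0.343). The endoplasmic reticulum peroxidase gpx8 (chromosome 18, 35321706 to 35330583, plus strand) was scarce, with 8.57, 7.95 and 4.14 CPM in young, 3.05, 2.52 and 3.93 CPM in adult and 18.5, 13.8 and 7.05 CPM in old libraries. Adults were below both other ages without overlap, and old was above adult by a log2 fold change of 2.05 (SE 0.48, edgeR adjusted p = 0.0949). GPX2, gpx7 and gpx9 were not tested, with 25, 10 and 2 counts over all libraries.

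**Figure D3:**
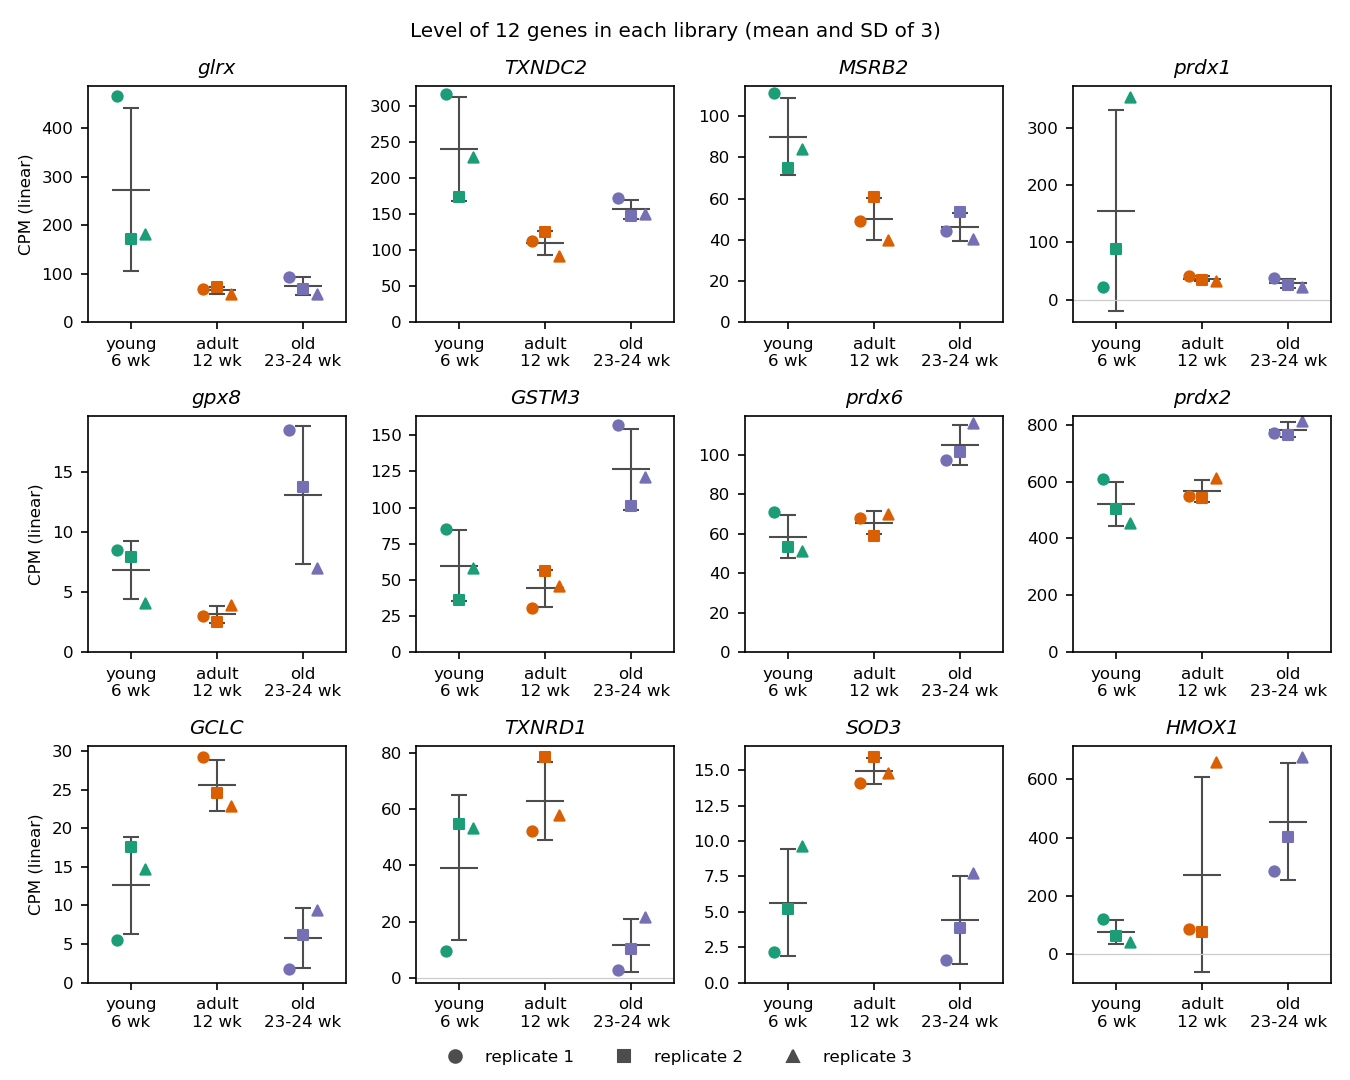
CPM (vertical axis, linear) of 12 members by age, with 1 point for each library, its shape giving the replicate number, and the mean with SD of 3 libraries. Young libraries stand apart for glrx and MSRB2, old libraries for GSTM3, prdx2 and prdx6, and adult libraries for GCLC and SOD3. For TXNDC2 the lowest young library, at 173.8 CPM, nearly meets the highest old one, at 172.2 CPM. prdx1 and HMOX1 owe their widest SDs to 1 library each.

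Peroxiredoxins reduce peroxides with a reactive cysteine, most of them recharged by thioredoxin. The most abundant, prdx2, had 607, 504 and 454 CPM in young, 548.5, 541 and 611 CPM in adult and 771, 764 and 811 CPM in old libraries. Old libraries lay above both other ages, by 0.58 on the log2 scale (SE 0.24, edgeR adjusted p = 0.287) against young. prdx6, a peroxiredoxin that in mammals uses glutathione and also has phospholipase activity, had 71.0, 53.3 and 51.4 CPM in young, 68.1, 59.0 and 70.15 CPM in adult and 97.3, 102 and 116 CPM in old libraries. It followed the same order, with a log2 fold change of 0.84 (SE 0.25, edgeR adjusted p = 0.155) between old and young and 0.68 (SE 0.25) between old and adult. prdx5, found in mitochondria, peroxisomes and cytosol, had 47.1 to 73.4 CPM in young, 53.1 to 59.3 CPM in adult and 74.2 to 89.3 CPM in old libraries. Old was higher than both other ages without overlap in these 3 of the 6 peroxiredoxins, where 19.1% of all genes were so against adult and 7.69% against young. For prdx5 the gap to young was narrow, from 73.41 to 74.18 CPM.

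The remaining peroxiredoxins did not share that order. Mitochondrial prdx3 had 33.5, 17.7 and 16.4 CPM in young libraries and 13.96 to 21.3 CPM in the others. prdx4, the form of the endoplasmic reticulum, had 146, 165 and 149 CPM in young, 171.5, 193 and 167 CPM in adult and 126, 149 and 181.5 CPM in old libraries, a log2 difference of -0.01 (SE 0.25) between old and young. prdx1 had 22.4, 88.4 and 355 CPM in young libraries against 41.8, 35.1 and 32.5 CPM in adult and 37.6, 26.1 and 21.6 CPM in old ones. Its fitted log2 fold change of -2.45 (SE 0.78, edgeR adjusted p = 0.176) between old and young was -0.97 without young replicate 3. The same library had the highest sum of 14 fibroblast and stellate markers, 1442 CPM against 52.5 to 392 CPM in the 8 others. Most of that sum came from the collagens col1a1b, at 754 CPM, and COL1A2, at 628 CPM. The third most abundant marker, tagln, had 15.0 CPM there, within the 10.1 to 39.5 CPM of the others. The part of these markers in the prdx1 level was not tested.

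The superoxide dismutases and catalase had their own order. SOD1 (cytosolic) had 551, 324 and 326 CPM in young, 249.6, 280.4 and 240.1 CPM in adult and 416, 331 and 351 CPM in old libraries. Adults were lowest without overlap, at a log2 fold change of -0.64 (SE 0.29, edgeR adjusted p = 0.508) against young. Without young replicate 1 that change was -0.34 (SE 0.20). The mitochondrial SOD2 ran opposite, with 127, 135 and 122 CPM in adult, 67.5, 97.7 and 102 CPM in young libraries and 60.7, 67.4 and 119.9 CPM in old libraries. Its adult libraries were above all others.

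SOD3, the secreted dismutase, had 14.1, 15.96 and 14.8 CPM in adult libraries, 2.13, 5.21 and 9.64 CPM in the young and 1.63, 3.86 and 7.75 CPM in old ones. The adult libraries again lay above all others, and old was below adult by -1.76 on the log2 scale (SE 0.64, edgeR adjusted p = 0.158). Catalase, the peroxisomal enzyme that splits hydrogen peroxide, had 398, 775 and 684 CPM in young, 916, 907 and 1058 CPM in adult and 504, 713 and 1212 CPM in old libraries. Adult exceeded young without overlap, and the old libraries spread over both ranges.

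Thioredoxin reductase TXNRD1 (chromosome 10, 55135597 to 55153997, minus strand) feeds electrons from NADPH to thioredoxin. It had 9.33, 54.9 and 53.2 CPM in young, 52.2, 78.6 and 58.1 CPM in adult and 2.69, 10.3 and 21.5 CPM in old libraries. Old was below adult without overlap, by a log2 fold change of -2.45 (SE 0.77, edgeR adjusted p = 0.126), and young replicate 1 lay within the old range. TXN2, mitochondrial thioredoxin, had 26.4, 25.9 and 27.7 CPM in young libraries against 15.9 to 23.0 CPM in all others, with a log2 fold change of -0.54 (SE 0.26, edgeR adjusted p = 0.543) between adult and young. The thioredoxin inhibitor TXNIPA varied most between young libraries, at 76.4, 1.97 and 52.5 CPM, while adult and old libraries held 5.69 to 14.8 CPM. The mitochondrial reductase TXNRD2 had 7 counts in all and was not tested.

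The table describes the gene it names TXNDC2 as thioredoxin (ENSNFUG00015005045, chromosome 4, 30050691 to 30053458, plus strand). It had 317, 174 and 230 CPM in young, 112, 125 and 91.6 CPM in adult and 172, 148 and 151 CPM in old libraries. The 3 ages did not overlap, with young highest and adult lowest, and the log2 fold change between adult and young was -1.13 (SE 0.29, edgeR adjusted p = 0.283). The gap between old and young was narrow, from 172.2 to 173.8 CPM. TXNDC17, a small cytosolic oxidoreductase, had its low in adults too, at 10.2 to 11.9 CPM against 14.5 to 28.3 CPM in young and 14.01 to 27.7 CPM in old libraries. TXNL4A, a spliceosome component rather than an antioxidant enzyme, was 2.02 to 4.45 CPM in adults and 5.19 to 8.76 CPM in old libraries. In young libraries it had 7.26, 13.7 and 3.93 CPM, overlapping with both.

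The thioredoxin-domain genes with the smallest p for old against adult included TXNDC11, txndc5 and TXNDC12, whose proteins reside in the endoplasmic reticulum. TXNDC11, which in mammals aids folding and degradation of proteins there, had 0.617, 12.7 and 9.93 CPM in old libraries, 46.3, 50.03 and 43.3 CPM in adult and 3.60, 56.4 and 45.1 CPM in young ones. txndc5, a protein disulfide isomerase, had 3.82, 4.57 and 2.78 CPM in old, 15.5, 23.9 and 9.67 CPM in adult and 3.77, 64.9 and 10.8 CPM in young libraries. TXNDC12 had 2.08 to 5.29 CPM in old against 8.14 to 9.66 CPM in adult libraries. All 3 were lower in old than in adult libraries without overlap (21.6% of all genes were), with log2 fold changes of -2.58 (SE 1.02), -2.13 (SE 0.86) and -1.20 (SE 0.45) and edgeR adjusted p-values of 0.18, 0.189 and 0.166. Young overlapped with old in each. Other members of the same compartment differed from them, gpx8 being higher in old than in adult libraries and prdx4 overlapping. Without young replicate 2, the log2 difference of txndc5 between old and young was -0.98 in place of -2.83. Adult libraries also held the most RNA of exocrine pancreas markers (77530, 6212 and 23700 CPM), whose part in these levels was not tested.

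The glutaredoxin glrx (ENSNFUG00015008246, chromosome 10, 38679396 to 38688790, plus strand), which removes glutathione from protein thiols, was the member with the smallest p of all. It had 467, 172 and 182 CPM in young libraries, 68.5, 71.9 and 57.3 CPM in adult and 94.2, 69.5 and 58.1 CPM in old ones. Every young library was above every adult and old library, which overlapped with each other. Adult was 4.15-fold below young (log2 fold change -2.05, SE 0.42, edgeR adjusted p = 0.137) and old 3.70-fold below young (-1.89, SE 0.42, adjusted p = 0.0805). Without young replicate 1 the log2 difference between adult and young was -1.42 (SE 0.25, edgeR adjusted p = 0.125). That between old and young was -1.27 (SE 0.25) and passed, at an edgeR adjusted p of 0.0216. In that fit 9.06% of all genes passed between old and young, against 0.558% with all 9 libraries.

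Other glutaredoxins differed less or were scarcer. GLRX2, a mitochondrial form, had 3.93, 4.22 and 1.33 CPM in young libraries and 0.899 to 2.18 CPM in the rest. The iron-sulfur proteins glrx3 and GLRX5 had 21.8 to 32.5 CPM and 7.18 to 16.8 CPM across all libraries, and GLRX5 differed between old and young by -0.51 on the log2 scale. MSRB2, a mitochondrial enzyme that repairs oxidised methionine, resembled glrx in its order. It had 111, 75.05 and 84.1 CPM in young, 49.2, 60.8 and 40.15 CPM in adult and 44.4, 53.6 and 40.6 CPM in old libraries. Young was above both other ages without overlap, old being lower by -0.96 on the log2 scale (SE 0.28, edgeR adjusted p = 0.15). The other methionine sulfoxide reductases, MSRB1, msrb1b, msrb3 and msra, had log2 fold changes between -0.39 and 0.31 in all comparisons.

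Haem oxygenase HMOX1 (chromosome 8, 10759772 to 10761168, plus strand) degrades haem and is a stress-inducible enzyme, abundant in macrophages that clear red cells. It had 121, 62.7 and 41.2 CPM in young, 84.0, 75.25 and 659.5 CPM in adult and 285, 403 and 677 CPM in old libraries. All old libraries were above all young ones, and adult replicate 3 alone reached the old range. The log2 fold change between old and young was 2.60 (SE 0.84, edgeR adjusted p = 0.181). Between adult and young it was 1.86 (SE 0.82), and 0.10 without adult replicate 3. Macrophage markers summed to 357 to 689.5 CPM in old libraries and 221 to 273 CPM in young ones, while adult replicate 3, with 471 CPM, was the lowest adult library in that sum. The part of these markers in the HMOX1 level was not tested.

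A relative, hmox1a, was scarce and lower in old libraries, with 0.73, 0.863 and 1.11 CPM there against 5.73, 1.63 and 1.82 CPM in young ones. The constitutive HMOX2B had 12.5 to 28.4 CPM in all libraries. NQO1, a quinone reductase and classic NRF2 target, was represented by a gene with 68.7, 42.1 and 53.2 CPM in young, 34.1, 35.65 and 26.4 CPM in adult and 30.4, 47.0 and 40.2 CPM in old libraries. Adult was below young without overlap, by -0.77 on the log2 scale (SE 0.30, edgeR adjusted p = 0.463). A second gene named NQO1 had no count. For pairs such as these, and for gstt1a with GSTT1B or MSRB1 with msrb1b, how reads from similar stretches were assigned is not given in the sources used here.

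**Figure D4:**
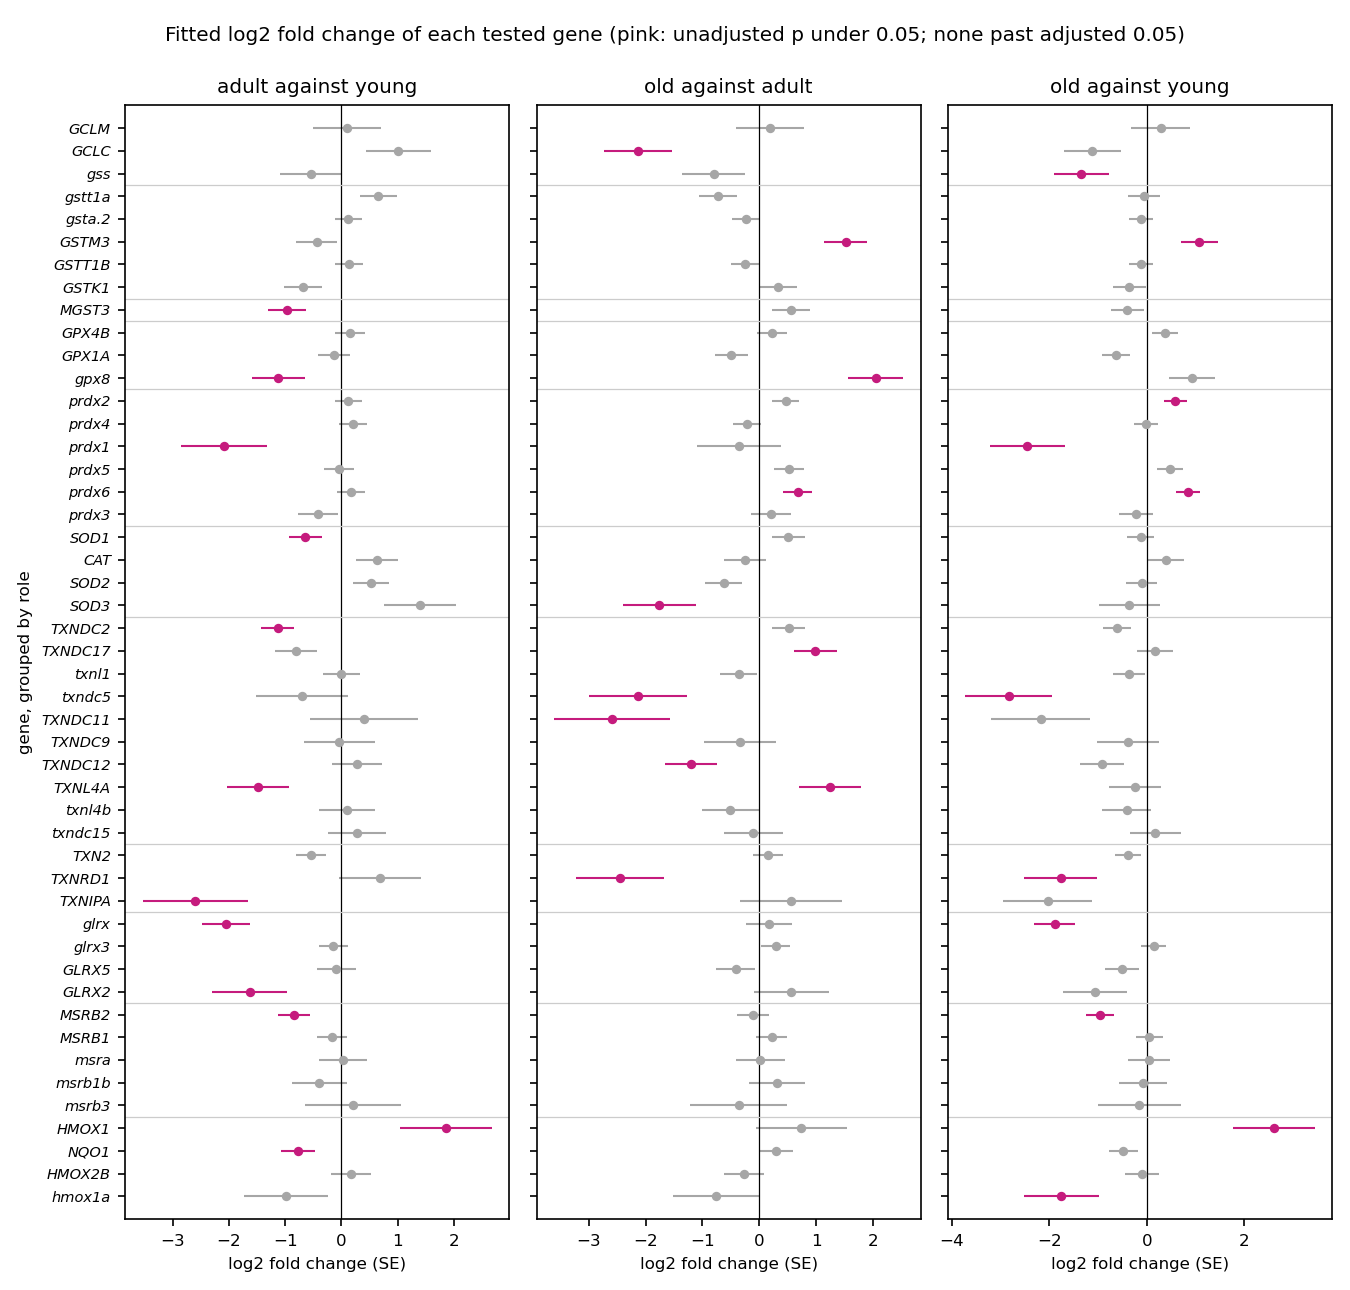
Fitted log2 fold change (horizontal axis) with its standard error for each of the 48 tested genes, ordered by role, in the 3 comparisons; pink marks an unadjusted p under 0.05, and no gene passed an adjusted p of 0.05. Pink points number 1 higher and 11 lower for adult against young (4.48% and 5.28% of all genes), 5 and 6 for old against adult (11.6% and 11.0%) and 4 and 7 for old against young (6.26% and 8.83%).

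Within the young and the old libraries, the level of some members followed the share of ribosomal RNA. In 12 members (25.0%), the level was lowest in young replicate 1 among the young libraries, and the old libraries stood in the inverse order of their ribosomal RNA shares. Of all genes, 12.1% showed this. The 12 were GCLC, GCLM, gstt1a, GSTT1B, prdx4, catalase, SOD2, SOD3, TXNDC9, TXNRD1, GLRX5 and msrb3. The reverse pattern held for gpx8, TXNDC17, TXNIPA and glrx, 8.33% of the members beside 13.0% of all genes. Several of the lower values in old libraries given above, those of GCLC, TXNRD1 and SOD3 in particular, thus belong to genes that were also low in young replicate 1. The adult libraries, with the least ribosomal RNA, had the highest mean of these 3 genes. Young replicate 1 was the lowest young library in 20 members (41.7%, against 42.3% of all genes) and the highest in 20 (40.1% of all genes). The part of the ribosomal RNA share in these differences was not tested.

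**Figure D5:**
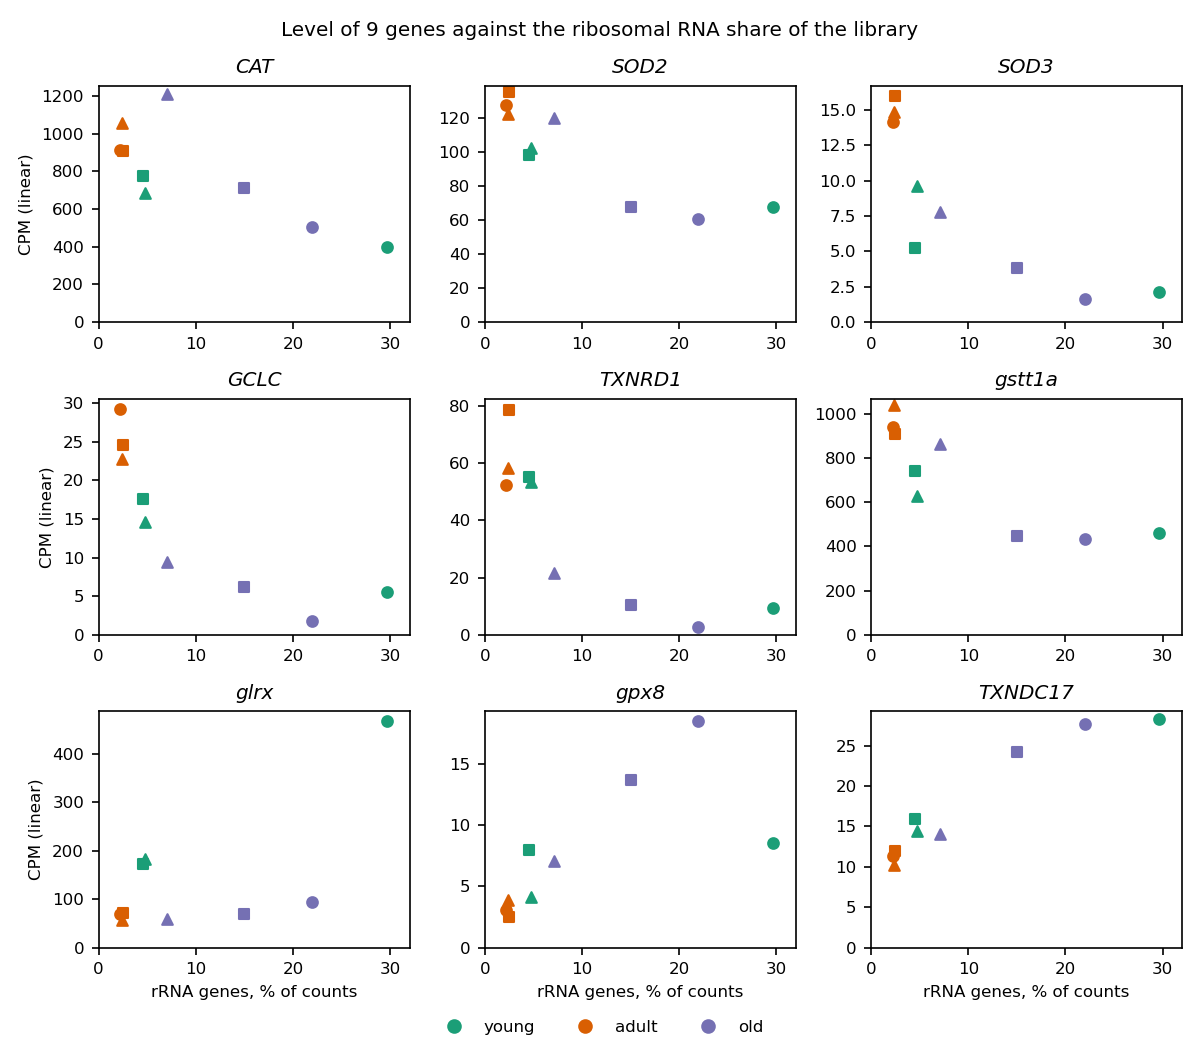
CPM (vertical axis, linear) of 9 members against the percent of a library's counts in ribosomal RNA genes, mitochondrial ones included (horizontal axis), with colour for age. SOD2, SOD3, GCLC, TXNRD1 and gstt1a were low in the 3 libraries at 15.0% or more ribosomal RNA, and TXNDC17 was high there. In the young libraries glrx had 172 and 182 CPM at 4.52 and 4.74% ribosomal RNA and 467 CPM at 29.6%.

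The number of members called differed between fits. Fitted with the adult and old libraries alone, edgeR called 6 members between these ages, where 12.8% of all genes were called. GSTM3, gpx8 and prdx6 were higher in old libraries and GCLC, TXNRD1 and txndc5 lower, with adjusted p-values from 0.0212 to 0.0498. With all ages but without young replicate 1, 4 of these 6 were called (GCLC, GSTM3, TXNRD1 and gpx8), beside 11.1% of all genes. Old against young without that library gave 5 members, glrx, prdx1 and txndc5 lower and prdx6 and GSTM3 higher, beside 9.06% of all genes. With young replicate 1 and old replicate 1 both left out, a setting chosen after seeing the data, TXNDC11, TXNRD1, GCLC and GSTM3 passed between old and adult (6.9% of all genes). In the same setting TXNDC11, TXNRD1, glrx, prdx1 and prdx6 passed between old and young (6.98% of all genes). DESeq2 on all 9 libraries called 2 members for adult against young, glrx and TXNDC2 (2.84% of all genes). It called 6 for old against adult (13.0%), 6 for old against young (7.61%) and 10 for any age (12.0%). For any age, edgeR called 5 members without young replicate 1 (9.56% of all genes) and 6 without that library and old replicate 1 (5.59%). Scaling by library size alone let glrx pass between old and young (0.394% of all genes) and for any age (0.58%), as did testing without a filter on low counts for any age (0.671%). Without young replicate 2, TXNIPA passed between old and young (0.302%), and without old replicate 3, gpx8 passed between old and adult (1.84%).

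Beyond the enzymes themselves, 6 lists of genes that regulate, feed or burden the system were examined, and 1 gene in them passed the test. Cystathionine beta-synthase (CBS), which commits homocysteine to cysteine synthesis and so supplies glutathione, had 122, 188 and 38.5 CPM in young libraries. It had 912, 706 and 1003 CPM in adult and 735, 818 and 953.5 CPM in old ones. CBS rose between young and old by 2.85 on the log2 scale (SE 0.50, edgeR adjusted p = 0.0443). The call was lost with the replicate block, with library size as the sole scaling, in the fit of the compared ages alone, and on leaving out any library other than young replicates 1 and 2, with log2 fold changes between 2.43 and 3.38 and adjusted p-values between 5.04e-06 and 0.175 over all alternatives. The next enzyme of that route, cthl (cystathionine gamma-lyase), had 51.4, 170.1 and 112 CPM in young and 228 to 342 CPM in all other libraries, with a log2 fold change of 1.35 (SE 0.40, edgeR adjusted p = 0.152). CBS was the only one of 17 tested genes of glutathione supply and breakdown to pass in any of the 3 comparisons.

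Of 14 tested regulators of the NRF2 pathway none passed. The gene for NRF2 itself, NFE2L2A, had 91.75, 25.3 and 87.3 CPM in young, 122, 91.3 and 157 CPM in adult and 80.8, 103 and 149 CPM in old libraries, without separation of the ages. Its repressor keap1b had 8.13, 10.9 and 11.2 CPM in young against 25.2, 22.1 and 25.0 CPM in adult libraries. Adult exceeded young by 1.25 on the log2 scale (SE 0.40, edgeR adjusted p = 0.372). Old libraries, at 9.37, 14.4 and 27.55 CPM of keap1b, overlapped with both. The other KEAP1 gene of the list, KEAP1A, did not share this order. It had 10.0, 0.397 and 3.47 CPM in young, 3.01, 2.25 and 4.21 CPM in adult and 10.3, 7.21 and 11.3 CPM in old libraries. Old KEAP1A levels lay above adult ones without overlap, by 1.605 on the log2 scale (SE 0.855, edgeR adjusted p = 0.288), and young overlapped with both. The autophagy receptor sqstm1, which binds KEAP1, had 269.5, 183.5 and 117.5 CPM in old libraries and 27.9 to 78.3 CPM in all others. That gave a log2 fold change of 2.15 (SE 0.46, edgeR adjusted p = 0.0873) against adult and 1.91 (SE 0.45, adjusted p = 0.095) against young. Among young libraries sqstm1 was highest in replicate 1, at 78.3 CPM against 32.5 and 41.5 CPM. The old libraries stood in the order of their ribosomal RNA shares, a pattern that 13.0% of all genes showed. The part of ribosomal RNA in the sqstm1 level was not tested.

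Genes of NADPH supply, on which glutathione and thioredoxin reductases depend, were lower in old than in adult libraries in 13 of 18 tested, and 12 of these did not overlap (66.7% of the list, 21.6% of all genes). Their median log2 fold change was -0.83, beside -0.05 over all genes, and none passed the test. The other 5 were higher in old than in adult libraries, me1 and ALDH1L1 without overlap (11.1% of the list, 19.1% of all genes). Between old and young, 2 of the 18 were lower without overlap (11.1%, against 7.9% of all genes). ALDH1L1 was higher without overlap there too (5.56%, against 7.69% of all genes), and none passed. MTHFD1A, a folate enzyme, had 302, 347 and 382.5 CPM in adult and 82.8, 105 and 169 CPM in old libraries (log2 fold change -1.53, SE 0.36, edgeR adjusted p = 0.0949). The mitochondrial transhydrogenase nnt had 48.9, 53.5 and 40.7 CPM in adult and 0.842, 5.48 and 9.83 CPM in old libraries. Its young values, 7.21, 25.7 and 44.4 CPM, were lowest in replicate 1, the library richest in ribosomal RNA. H6PD, tktb and MTHFD1A were also lowest there among the young libraries, and the part of ribosomal RNA in these levels was not tested.

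No gene passed in the lists of other glutathione-using enzymes (11 tested), selenium handling (12 tested) or oxidant-producing enzymes (18 tested). In the first, glyoxalase glo1 had 90.7, 43.3 and 41.4 CPM in young, 34.1 to 36.1 CPM in adult and 59.3 to 92.1 CPM in old libraries. Adult was lowest without overlap, and young overlapped with old. In the second, selenom, a selenoprotein of the endoplasmic reticulum, had 22.3, 16.7 and 12.3 CPM in young, 5.61, 4.59 and 4.37 CPM in adult and 1.46, 4.11 and 4.50 CPM in old libraries. Young was highest without overlap, with a log2 fold change of -2.35 (SE 0.48, edgeR adjusted p = 0.0685) for old against young. In the third, spermine oxidase SMOX had 137, 106 and 22.3 CPM in old and 11.6 to 27.3 CPM in young libraries, with old replicate 3 inside the young range.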

How the data were processed

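Liver RNA of 9 libraries, 3 at each age, was analysed from 1 deposited table. The labels' protocols give TRIzol extraction, DNase I, RNeasy columns and the SMART-Seq mRNA Kit. DRAGEN appears in the submitters' processing notes, with no version or role. The genome build is not given in the sources used here, and positions are those of the table. Per the file headers, the authors deposited a count and a TPM value for each gene and library. The deposited counts are estimated counts, unscaled, of which 93.6 to 95.7% per library were whole numbers exactly as deposited. They were rounded, which changed no value by more than 0.5. The TPM values, scaled by the authors for length and library, were used to compare levels between genes and to sum role groups in each library. They were not tested. No column of values was left unmapped.

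The test was that of edgeR 4.0.16 under R 4.3.3 (filterByExpr, TMM scaling, glmQLFit robust, 1 mean for each age over all 9 libraries, glmQLFTest). Benjamini-Hochberg adjustment ran over 13971 genes, with 0.05 as threshold. Between libraries the common coefficient of variation came to 0.614. A standard error is the log2 fold change divided by the square root of F. CPM are on the TMM-adjusted library size. Total counts of 19600325 to 33951438 per library set the counting precision, and a count of 0 allows up to 0.0662 to 0.168 CPM in a library, for counting error only. Libraries do not overlap where each of one age exceeds each of another. The script was tested on simulated data.

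The members, roles, gene lists and tests were chosen with earlier results of these data known. Named were up to 6 members higher and 6 lower in each comparison by fitted fold change among unadjusted p under 0.05, the most abundant members of each role, the classic enzymes with all peroxiredoxins, glutathione peroxidases and thioredoxin reductases, and genes of each pathway list with the smallest p. Other genes named, such as gsta.2 as a steady one, and those named in the lists beyond the smallest p, were chosen after their values were seen. Of the symbols, 15240 came from the table and 474 from a RefSeq gene table. Sequences were not used here.

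Alternatives were median-of-ratios scaling, library size only, no filter, a filter of 1 CPM in 3 libraries, DESeq2 1.42.0, limma-voom (limma 3.58.1), a fit restricted to each pair of ages, a replicate block, removal of ribosomal and mitochondrial genes, deposited TPM for medians and each library left out. Leaving out young replicate 1 and old replicate 1 together was chosen after seeing the data.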

Additional observations from a re-analysis of the deposited data

How the results depend on the processing

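Over all genes, edgeR called 2 for adult against young, 1 for old against adult, 78 for old against young and 100 for any age. In that order, DESeq2 called 386, 1811, 1056 and 1596. Without a filter on low counts 13, 75 and 131 genes passed the 3 pairwise tests. limma-voom called 10 for adult against young. Fitting only the ages compared gave 0, 1682 and 6. With young replicate 1 and old replicate 1 both left out, 0, 984, 995 and 797 passed. Leaving out 1 library at a time gave 0 to 12, 0 to 1625, 2 to 1321 and 0 to 1394, the highest values but the first without young replicate 1 and the 12 without adult replicate 2. Of the 78 calls 61.5% were higher, against 49.1% with library size only and 75.9% with limma-voom.

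No member was called in the fit on all 9 libraries with TMM scaling. DESeq2 called 2, 6, 6 and 10 members in the 4 tests. The 2-age fit called 6 for old against adult. Library size only called 1 for old against young and 1 for any age (glrx in both), and no filter called 1 for any age (glrx). Without young replicate 1 and old replicate 1, 4, 5 and 6 passed for old against adult, old against young and any age. Leaving out 1 library gave 0 to 4, 0 to 5 and 0 to 5 for these. The members' median log2 fold change moved from -0.06 to -0.43 for adult against young and from -0.23 to -0.54 for old against young with library size as the sole scaling. The median over all genes moved to -0.36 in both. In deposited TPM the members' median was -0.27 for old against adult and -0.50 for old against young, with no median over all genes given. Leaving out 1 library gave members' medians of -0.198 to 0.063 and -0.43 to -0.17 for the latter comparisons. Of 28 pairs of a named member and a comparison, none was reversed in any alternative and 16 passed in at least 1. The pairs had been chosen by unadjusted p and fold change in the main fit on the same libraries. A reversal was therefore unlikely beforehand. The cause of the differences between fits was not tested.

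With the replicate number as a block, 0, 0, 45 and 8 genes and no member passed. Deviations of libraries sharing a number correlated at -0.05 to 0.21 over 9 pairs, with 3 above 0.1, so that the numbers were not taken as pairing. Depth limits GPX2, gpx7, gpx9 and TXNRD2, with 2 to 25 counts in all.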

Other observations

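The table describes 18 further genes with words of these families, without a name there that the rule takes. They include a gene described as a methionine sulfoxide oxidase, not a reductase. GRXCR1, GRXCR2 and a gene similar to thioredoxin-interacting protein were not tested, and none of the others passed the edgeR test. Among them is a gene with no name in the table, called gsta.1 in RefSeq and described as similar to an alpha-class glutathione S-transferase. It had 789.8, 320.2 and 269 CPM in young libraries, 275 to 363 CPM in adult and 895, 949 and 719 CPM in old ones. Old was above adult without overlap, with a log2 fold change of 1.39 (SE 0.41, edgeR adjusted p = 0.115), and young replicate 1 lay within the old range. A second alpha-like gene, Nfu_g_1_010632, had 944, 418 and 728 CPM in old, 255 to 364 CPM in adult and 232, 322 and 871 CPM in young libraries. A gene described as MGST3-like, OLA.4512, had 735, 487 and 665 CPM in old, 328 to 410.1 CPM in adult and 757.5, 369 and 466 CPM in young libraries. In both, young overlapped with old. Zeta-class gstz1, which also degrades tyrosine metabolites, had 322.5, 311 and 337 CPM in old against 121 to 233 CPM in young libraries (log2 fold change 0.90, SE 0.28, edgeR adjusted p = 0.177). Each of these 4 was higher in all old than in all adult libraries, as were GSTM3 and 19.1% of all genes, while gstt1a and gsta.2 were lower without overlap. The theta-like OLA.6486 overlapped, at 85.65 to 125 CPM in old and 117 to 145 CPM in adult libraries. They were chosen after their values were seen.

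A gene that the table names slc30a9 is described there as glutathione-disulfide reductase, the enzyme that regenerates glutathione. It had 16.4, 45.1 and 47.7 CPM in young, 32.1, 40.5 and 48.85 CPM in adult and 29.8, 41.96 and 31.4 CPM in old libraries. Its log2 fold changes lay between -0.23 and 0.15. Which of the 2 names applies cannot be told from the table.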
